A study of Homo sapiens with 87 samples.

Results

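The genes described here are 10 genes for secreted glycoproteins of the extracellular matrix, namely SPARC, THBS1, THBS2, POSTN, VCAN, FN1, TNC, FBN1, FBN2 and MFAP2. They were taken by name, with earlier results of these data known. All 10 were found among the 35438 genes of each of the 2 gene-level count tables. Levels are given as CPM, the estimated count of a gene scaled to the total of its library. TNC had too few counts to be tested, so that 9 of the 10 genes were tested in each table.

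The RNA came from HAP1, a human cell line with a nearly haploid genome whose origin is a leukaemia, and from its knockouts of genes of the BAF (SWI/SNF) complex, which remodels chromatin by moving nucleosomes. In the first count table (knockout table) there are 75 libraries, 3 in each of 25 groups: unedited wild type (clone C631) and 24 clones that lack 1 gene each. The genes knocked out are ACTB, ARID1A (clones 618-10 and 618-3), ARID1B, ARID2, BCL11A, BCL11B, BCL7A, BCL7B, BRD7, BRD9, DPF1, DPF2, DPF3, PBRM1, PHF10, SMARCA2, SMARCA4 (clones 2878-4 and 2878-6), SMARCC1, SMARCC2, SMARCD1, SMARCD2 and SMARCD3. In the second (double-loss table) there are 12 libraries, 2 in each of 6 groups: wild type with a control knockdown or with knockdown of both SMARCA4 and ARID2, ARID2 knockout with a control or SMARCA4 knockdown, and SMARCA4 knockout with a control or ARID2 knockdown. Apart from ARID1A and SMARCA4, each gene is represented by 1 group of libraries, so the loss of the gene and the history of its clone cannot be told apart. The labels give no clone name for the SMARCC2 libraries or for the double-loss libraries. The SMARCC2 samples are numbered among the double-loss samples, apart from the other knockout samples and their wild type. For SMARCC2, the loss of the gene and the set of samples therefore cannot be told apart either. Whether the libraries within a group stem from separate cultures is not stated, and the p-values measure only how far these libraries spread.

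Matricellular proteins such as SPARC, the thrombospondins (THBS1 and THBS2), periostin (POSTN) and tenascin-C (TNC) sit in the matrix without bearing its load and modulate how cells adhere to it, migrate through it and receive growth factors from it. Fibronectin (FN1) and the proteoglycan versican (VCAN) form the provisional matrix to which cells bind through integrins and the hyaluronan receptor CD44. Fibrillins (FBN1 and FBN2) assemble into microfibrils, the scaffold of elastic fibres and a store of latent TGF-beta, and MFAP2 (MAGP-1) is a small glycoprotein bound to those microfibrils.

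Promoter sequence was read for the genes from RefSeq (GRCh38.p14), which lists a start for all 10 and a second start for MFAP2. The 3 windows below are those of the genes with the widest ranges between knockouts, THBS1, POSTN and MFAP2, each running 250 bases up to the listed start, 5′ to 3′ on the strand of the gene. Capitals mark every match, on either strand, to the TATA box TATAAA, to the CCAAT box, to the GC box GGGCGG, to TGANTCA (the core of AP-1 sites) or to GGAATG (the core of TEAD sites). The windows lie at chr15:39580829-39581078 on the plus strand for THBS1, at chr13:37598769-37599018 on the minus strand for POSTN, and at chr1:16981584-16981833 on the minus strand for MFAP2, whose first listed start is shown.
THBS1: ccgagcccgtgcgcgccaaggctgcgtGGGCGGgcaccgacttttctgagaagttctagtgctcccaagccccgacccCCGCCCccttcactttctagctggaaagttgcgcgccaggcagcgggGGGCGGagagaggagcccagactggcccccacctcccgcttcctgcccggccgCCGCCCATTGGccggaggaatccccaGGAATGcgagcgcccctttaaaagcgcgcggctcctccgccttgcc
POSTN: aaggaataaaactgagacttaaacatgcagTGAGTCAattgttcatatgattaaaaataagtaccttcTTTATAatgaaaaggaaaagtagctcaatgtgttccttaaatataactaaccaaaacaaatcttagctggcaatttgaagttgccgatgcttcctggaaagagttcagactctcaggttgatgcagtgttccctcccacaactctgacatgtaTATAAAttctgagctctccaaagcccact
MFAP2: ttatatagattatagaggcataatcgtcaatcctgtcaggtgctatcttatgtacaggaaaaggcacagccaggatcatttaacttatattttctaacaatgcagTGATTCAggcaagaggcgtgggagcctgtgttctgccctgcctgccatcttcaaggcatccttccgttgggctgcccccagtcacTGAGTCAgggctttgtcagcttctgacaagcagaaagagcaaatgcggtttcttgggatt

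The 3 windows differ in base composition. GC made up 69.6% of the THBS1 window, 36.4% of the POSTN window and 46.8% of the MFAP2 window, beside a median of 58% over 35114 promoter windows of the same length. The THBS1 window held 4 matches to GGGCGG, which 42.6% of all windows hold, and 1 to CCAAT (32% of windows), which directly follows 1 of the GGGCGG matches without overlap. It also held 1 match to GGAATG, found in 11.9% of windows. The POSTN window held TATAAA starting 29 bases before the listed start and again, on the other strand, at 182 bases, a motif found in 10.7% of windows. A TGANTCA match, present in 6.57% of windows, stood 220 bases before the POSTN start and at 145 and 60 bases before the first MFAP2 start. Which MFAP2 start these cells use was not determined. The window of the second listed MFAP2 start, not shown, was 76.4% GC and held 2 matches to GGGCGG and 0 to TGANTCA. These matches describe letters in the sequence and not sites of binding.

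The total estimated count per library was 14917644 to 29993652 among knockout libraries and 9144150 to 19789622 among double-loss libraries. The lowest listed value in either table is 1, and 7631 of the 35438 genes stand at 1 in all 75 knockout libraries, so a gene at 1 cannot be told apart from a gene without reads. If 1 was added to every count, the ratios of low counts given here are too small. They were therefore also computed with 1 subtracted from every count, a choice made after seeing the data. The mRNA of the targeted gene was itself called lower in 14 of 24 clones. Over the 2000 most variable genes, the BCL11A, BCL11B and SMARCD3 clones correlated with each other at r = 0.963 to 0.977, about as closely as the 2 clones of ARID1A (0.967) or of SMARCA4 (0.960). The DPF3 and DPF1 clones correlated with wild type about as closely, at 0.969 and 0.962. The blood markers PTPRC, SPI1 and GATA1 were near the lowest value throughout, although the line stems from a leukaemia, whereas the blood genes HCLS1, KIT and TAL1 were expressed in wild type.

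Per unit of transcript length, the deposited log2 TPM placed SPARC and FBN2 highest in wild type, at 7.08 ± 0.105 and 6.97 ± 0.21 (mean ± SD of log2 TPM, n = 3). SPARC and FBN2 overlapped between libraries and were not separable in order. THBS2 (5.96 ± 0.114) and FBN1 (5.17 ± 0.195) followed, then FN1 (4.14 ± 0.136) and THBS1 (3.91 ± 0.304), whose libraries also overlapped. VCAN stood at 2.05 ± 0.424, and MFAP2 (0.704 ± 0.228) and POSTN (0.473 ± 0.407) were the lowest of the genes that could be tested and overlapped as well. SPARC exceeded 95.7% and POSTN 64.5% of all listed genes in wild type on this scale. A low level in wild type did not mean a low level in every clone: the group mean of POSTN on the same log2 TPM scale reached 7.63 in SMARCA4 clone 2878-6.

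**Figure D1:**
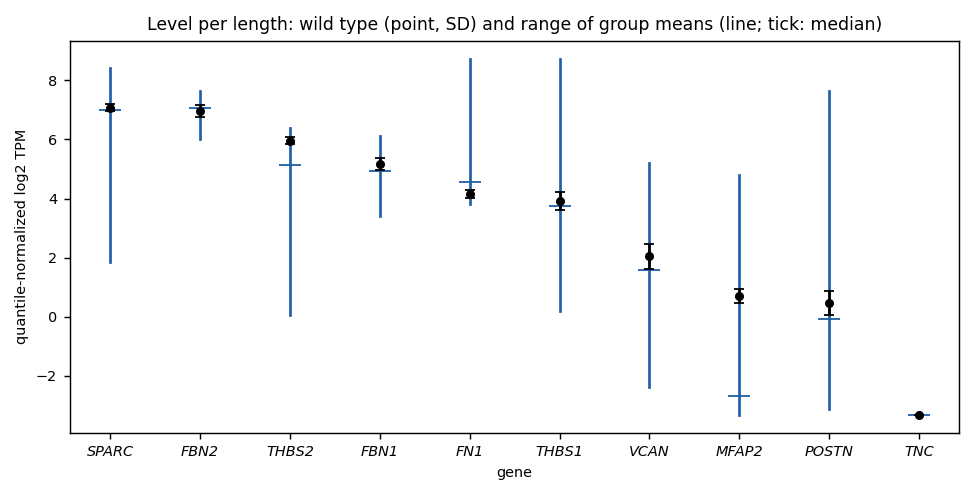
Deposited log2 TPM of each gene. Points with error bars are the wild-type mean ± SD (n = 3), bars span the group means of the 24 groups with matched columns, and ticks mark their median. POSTN, THBS1 and MFAP2 span wide ranges, whereas FBN2 lies between 6.02 and 7.64 in every group.

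The question put to the knockout table was which of these genes change when a BAF subunit is lost. A gene was called when edgeR's quasi-likelihood test gave a Benjamini-Hochberg adjusted p of at most 0.05 over all genes and the log2 fold change from wild type was at least 1 in size. Of the 216 pairs of gene and clone, 38 (17.6%) were called higher and 73 (33.8%) lower, where 2.46% of all such pairs in the table were called higher and 2.24% lower. Because the genes were chosen with earlier results of these data known, these shares describe the genes and do not test them as a set. MFAP2 was called in 23 of 24 clones (5 higher, 18 lower), POSTN in 20 (8 higher, 12 lower), VCAN in 19 (8 higher, 11 lower) and THBS1 in 17 (6 higher, 11 lower). Over all tested genes, 0.118% were called in at least 23 clones, 0.322% in at least 20, 0.520% in at least 19, 0.928% in at least 17 and 74.7% in none. SPARC had 3 calls higher and 9 lower, THBS2 11 lower, FN1 8 higher and FBN1 1 lower, and FBN2 had none (at an unadjusted p under 0.05 it was higher in 7 clones and lower in 3, and DESeq2 called none). For the counts of SPARC, THBS2, FN1 and FBN1 the matching shares were 2.35% (at least 12 clones), 2.82% (11), 4.73% (8) and 25.3% (1). In these bulk libraries, fewer cells that express a gene and less of its RNA per cell cannot be told apart.

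The clones differed in which way the genes went. Over the clones, between 0.365% (DPF3) and 5.99% (SMARCA4 2878-4) of all tested genes were called higher, and between 0.823% (DPF1) and 5.28% (SMARCA4 2878-4) lower. In SMARCD1 knockout 6 of the 9 genes were called lower and in BRD9 knockout 5, against 2.57% and 1.94% of all genes, and edgeR called none higher in either, nor was any higher at an unadjusted p under 0.05 or by DESeq2. SMARCD2 knockout had the opposite balance, with 3 genes higher against a background of 1.44%. In SMARCA4 clone 2878-4, 3 genes were higher and 4 lower, and in clone 2878-6, 4 were higher and 2 lower. The background in clone 2878-6 was 5.53% higher and 4.72% lower. The median log2 fold change over the 9 genes ran from -1.29 in BRD9 knockout to 0.57 in ACTB and SMARCD2 knockout, while that over all genes stayed between -0.021 and 0.014. Without the BCL11A, BCL11B and SMARCD3 clones 36 pairs were called higher and 61 lower, and without the SMARCC2 clone 36 and 69.

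**Figure D2:**
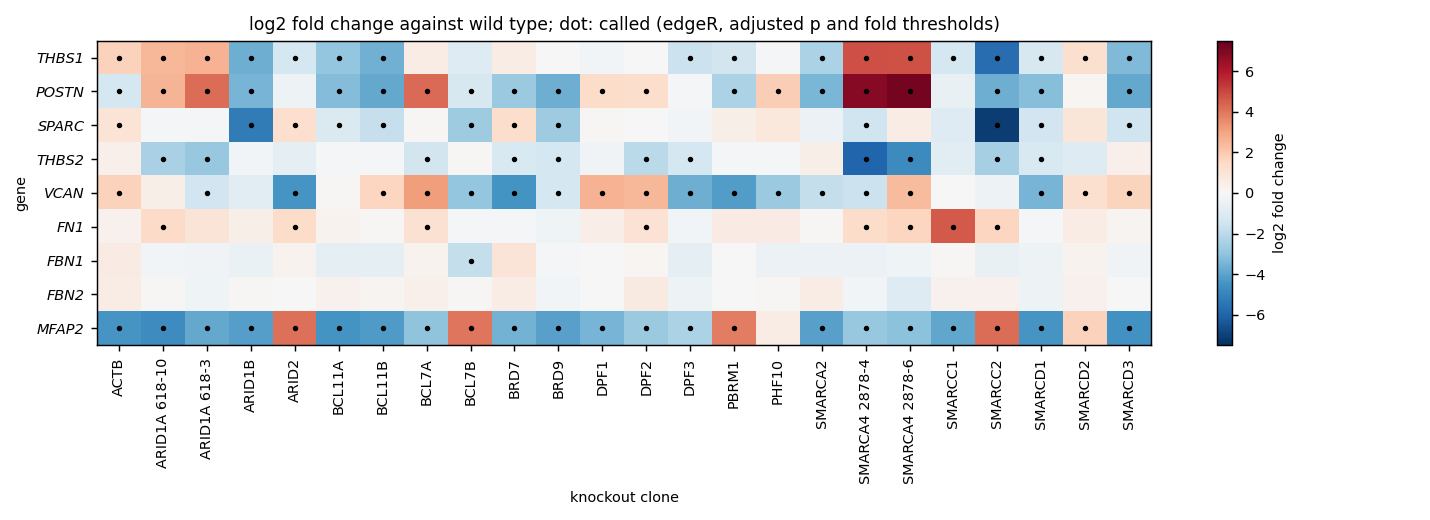
Log2 fold change from wild type of the 9 tested genes (one axis) in the 24 clones (the other axis), by colour. A dot marks a called difference. MFAP2, POSTN, VCAN and THBS1 are marked in most clones and in both directions, and FBN2 is marked in none.

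THBS1 encodes thrombospondin-1, which activates latent TGF-beta and inhibits the growth of blood vessels. In wild type it stood at 11.6, 17.4 and 15.9 CPM. In SMARCA4 clone 2878-4 it reached 361, 442 and 471 CPM and in clone 2878-6 376, 389 and 456 CPM. All 6 SMARCA4 libraries lay far above the wild-type range, and the 2 clones overlapped each other. The log2 fold changes of THBS1 were 4.85 ± 0.269 in clone 2878-4 and 4.77 ± 0.268 in clone 2878-6 (SE; adjusted p = 1.59e-22 and 3.34e-22, edgeR).

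Both ARID1A clones also carried more THBS1. Clone 618-10 held 81.3, 75.1 and 95.03 CPM and clone 618-3 held 85.7, 92.2 and 100.2 CPM, above every wild-type library. The log2 fold changes were 2.47 and 2.61. THBS1 was called higher in ACTB knockout too (49.4 ± 9.57 CPM, SD, n = 3; log2 fold change 1.74) and in SMARCD2 knockout (34.6 ± 3.58 CPM; 1.20). At the other end, SMARCC2 knockout held 0.233, 0.489 and 0.171 CPM, from 3 to 9 counts a library. By summed counts THBS1 was 52.8-fold lower there, with a counting interval of 33.6 to 88.1 (95%, exact). Wild type under the control knockdown, in the double-loss table, held a similar 0.319 and 0.165 CPM. The part of the set of samples in the SMARCC2 value was not tested. THBS1 fell to 1.18 ± 0.585 CPM in ARID1B knockout (log2 fold change -3.64) and to 1.24 ± 0.216 CPM in BCL11B knockout (-3.63). SMARCD3, BCL11A, SMARCA2, DPF3, PBRM1, ARID2, SMARCC1 and SMARCD1 knockout were lower by log2 fold changes from -3.31 to -1.23. A test against a log2 fold change of 1 (edgeR's glmTreat) did not keep the calls in DPF3, PBRM1, ARID2, SMARCC1, SMARCD1 and SMARCD2 knockout. The call in DPF3 knockout was also lost with only that clone and wild type in the fit (adjusted p = 0.113, edgeR). Between the lowest and the highest group mean the level of THBS1 differed 1430-fold.

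POSTN encodes periostin, an adhesion protein that binds integrins and promotes collagen cross-linking. It was scarce in wild type, at 0.953, 1.66 and 1.54 CPM. SMARCA4 clone 2878-6 held 185, 178 and 245 CPM and clone 2878-4 held 101, 160 and 204 CPM. The highest library outside these 2 clones held 39.8 CPM. The log2 fold changes were 7.18 ± 0.349 and 6.81 ± 0.345 (SE; adjusted p = 3.74e-25 and 2.03e-24, edgeR), the widest rise of any of the 9 genes.

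A step below came BCL7A knockout with 23.7, 26.2 and 29.8 CPM of POSTN and ARID1A clone 618-3 with 16.0, 22.0 and 39.8 CPM. Their ranges overlapped, and the log2 fold changes were 4.23 and 4.19. The second ARID1A clone, 618-10, held 6.80, 4.78 and 13.5 CPM (2.56), below every library of clone 618-3. POSTN was also called higher in PHF10 (1.87), DPF1 (1.38) and DPF2 knockout (1.30). In 8 clones, those of ARID1B, BCL11A, BCL11B, BRD9, SMARCA2, SMARCC2, SMARCD1 and SMARCD3, it had at most 3 counts in every library. These 8 calls are therefore given as ratios of summed counts, from 9.19-fold lower in SMARCD1 knockout (counting interval 4.63 to 20.8) to 15.0-fold lower in BCL11B knockout (6.63 to 42.0). With 1 subtracted from every count these ratios were 13.3-fold in SMARCD1 knockout (5.87 to 37.3) and 29.0-fold in BCL11B knockout (9.59 to 143). POSTN was 7.07-fold lower in BRD7 knockout (3.85 to 14.2), and PBRM1, ACTB and BCL7B knockout were called lower with log2 fold changes of -2.38, -1.29 and -1.23. The calls in ACTB, BCL7B, DPF1 and DPF2 knockout did not hold in some fits without 1 replicate of wild type or of all clones at once (adjusted p = 0.0591 to 0.254, edgeR). The test against a log2 fold change of 1 (glmTreat) did not keep these calls, nor those in PHF10 and PBRM1 knockout.

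The SMARCA4 clones with the highest THBS1 and POSTN also had more of the listed fibroblast markers (COL1A1, COL1A2, COL3A1, PDGFRA, PDGFRB, THY1, LUM and DCN). Their summed level was 411 to 531 CPM in clone 2878-4 and 337 to 455 CPM in clone 2878-6, beside 103 to 125 CPM in wild type, and 5 of 5 tested markers were called higher in both. DCN was at 3 counts or fewer in every library of both clones, as were COL1A2 in 2878-4 and LUM in 2878-6. The epithelial markers (EPCAM, CDH1, KRT8, KRT18 and KRT19) summed to 286 to 372 CPM in clone 2878-4 and 286 to 308 CPM in clone 2878-6, beside 68.2 to 74.8 CPM in wild type, with 2 of 3 tested called higher in each, although CDH1 and KRT19 were at 3 counts or fewer in every library of 2878-4. The blood markers summed to 9.06 to 10.8 CPM in 2878-4 and 53.5 to 66.8 CPM in 2878-6, beside 69.6 to 83.0 CPM in wild type. Of 6 tested blood markers, 4 were called lower and 0 higher in 2878-4, and 3 lower and 1 higher in 2878-6. The part of these markers in the result was not tested. In ARID1B knockout, where THBS1, POSTN and SPARC fell, the fibroblast markers summed to 21.65 to 24.98 CPM. There 3 of 5 tested fibroblast, 2 of 3 epithelial and 4 of 6 blood markers were called lower, and 1 blood marker higher. In SMARCC2 knockout, the lowest group for THBS1 and SPARC, the fibroblast markers summed to 66.01 to 85.97 CPM, with 3 of 5 lower.

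SPARC encodes osteonectin, a collagen-binding protein that also binds calcium. Wild type held 128, 134 and 143 CPM. In SMARCC2 knockout SPARC stood at 1.30, 0.924 and 0.568 CPM, and in ARID1B knockout at 3.03, 2.53 and 4.96 CPM. These were the 2 lowest groups, and their libraries did not overlap. The log2 fold changes were -7.12 ± 0.213 (SE; adjusted p = 2.51e-34) and -5.24 ± 0.183 (adjusted p = 4.28e-31, edgeR). A second tier was formed by BRD9 knockout (16.3, 22.1 and 25.1 CPM; -2.68) and BCL7B knockout (17.1 to 27.4 CPM; -2.65), whose ranges overlapped. BCL11B, SMARCD3, SMARCD1 and BCL11A knockout and SMARCA4 clone 2878-4 lay between 42.3 and 63.0 CPM on average, with log2 fold changes from -1.71 to -1.11.

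SPARC was called higher in 3 clones by edgeR, those of BRD7 (329, 340 and 362 CPM; log2 fold change 1.33), ARID2 (288, 302 and 359 CPM; 1.24) and ACTB (268, 272 and 287 CPM; 1.05). DESeq2 did not call ACTB knockout (0.97), and a test against a log2 fold change of 1 called none of the 3 (edgeR's glmTreat, adjusted p = 0.144, 0.362 and 1). BRD7 and ARID2 are subunits of PBAF, the BAF complex variant that also holds PBRM1 and PHF10. The BRD7 and ARID2 libraries overlapped each other and lay above all those of wild type. In the clones of PHF10 and PBRM1 the test was passed below the fold threshold, with log2 fold changes of 0.82 (adjusted p = 1.44e-05) and 0.43 (adjusted p = 0.0407, edgeR). The same held for SMARCD2 knockout (0.90; adjusted p = 1.88e-06), whose 247 to 255 CPM lay above PHF10 knockout at 233 to 246 CPM, and for SMARCA4 clone 2878-6 (0.56; adjusted p = 0.000992). In SMARCC2 knockout the marker list for A549, the other line named in the growth protocol, summed to 9.49 to 13.9 CPM against 2.11 to 4.43 CPM in wild type, with 4 of 6 tested markers called higher, and the part of this in the SPARC and THBS1 values was not tested.

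THBS2 encodes thrombospondin-2, which limits blood vessel growth and binds matrix metalloproteinases. It was abundant in wild type, at 62.5, 57.8 and 66.1 CPM. SMARCA4 clone 2878-4 held 0.899, 0.882 and 1.12 CPM and clone 2878-6 held 2.10, 2.43 and 2.19 CPM. The 2 clones did not overlap each other and both lay below every other group. The log2 fold changes were -5.97 ± 0.229 (SE; adjusted p = 5.32e-30) and -4.78 ± 0.206 (adjusted p = 1.55e-27, edgeR). In these 2 clones THBS1, its closest relative among these genes, rose.

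The ARID1A clones also had a high THBS1 and a low THBS2. THBS2 was at 9.62, 9.24 and 7.22 CPM in clone 618-3 (log2 fold change -2.86) and at 12.5, 9.83 and 11.7 CPM in clone 618-10 (-2.46). The other 2 clones with THBS1 called higher had no THBS2 call: ACTB knockout held 71.9 to 88.0 CPM of THBS2, above every wild-type library (log2 fold change 0.36; adjusted p = 0.131), and SMARCD2 knockout 30.4 to 34.2 CPM (-0.96; adjusted p = 1.13e-05, edgeR). SMARCC2 knockout, in which THBS1 was lowest, also had little THBS2, at 16.2, 9.46 and 7.61 CPM (-2.49). THBS2 was called lower in DPF2 (-2.04), BCL7A (-1.38), DPF3 (-1.32), BRD9 (-1.29), SMARCD1 (-1.16) and BRD7 knockout (-1.12). The test against a log2 fold change of 1 (glmTreat) did not keep those of BCL7A, DPF3, BRD9, SMARCD1 and BRD7. THBS2 was thus within reach of the fold threshold in these clones. It was called higher in no clone by edgeR or DESeq2, and in 3 at an unadjusted p under 0.05. Its highest group was SMARCA2 knockout, at 79.2, 83.6 and 92.3 CPM.

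**Figure D3:**
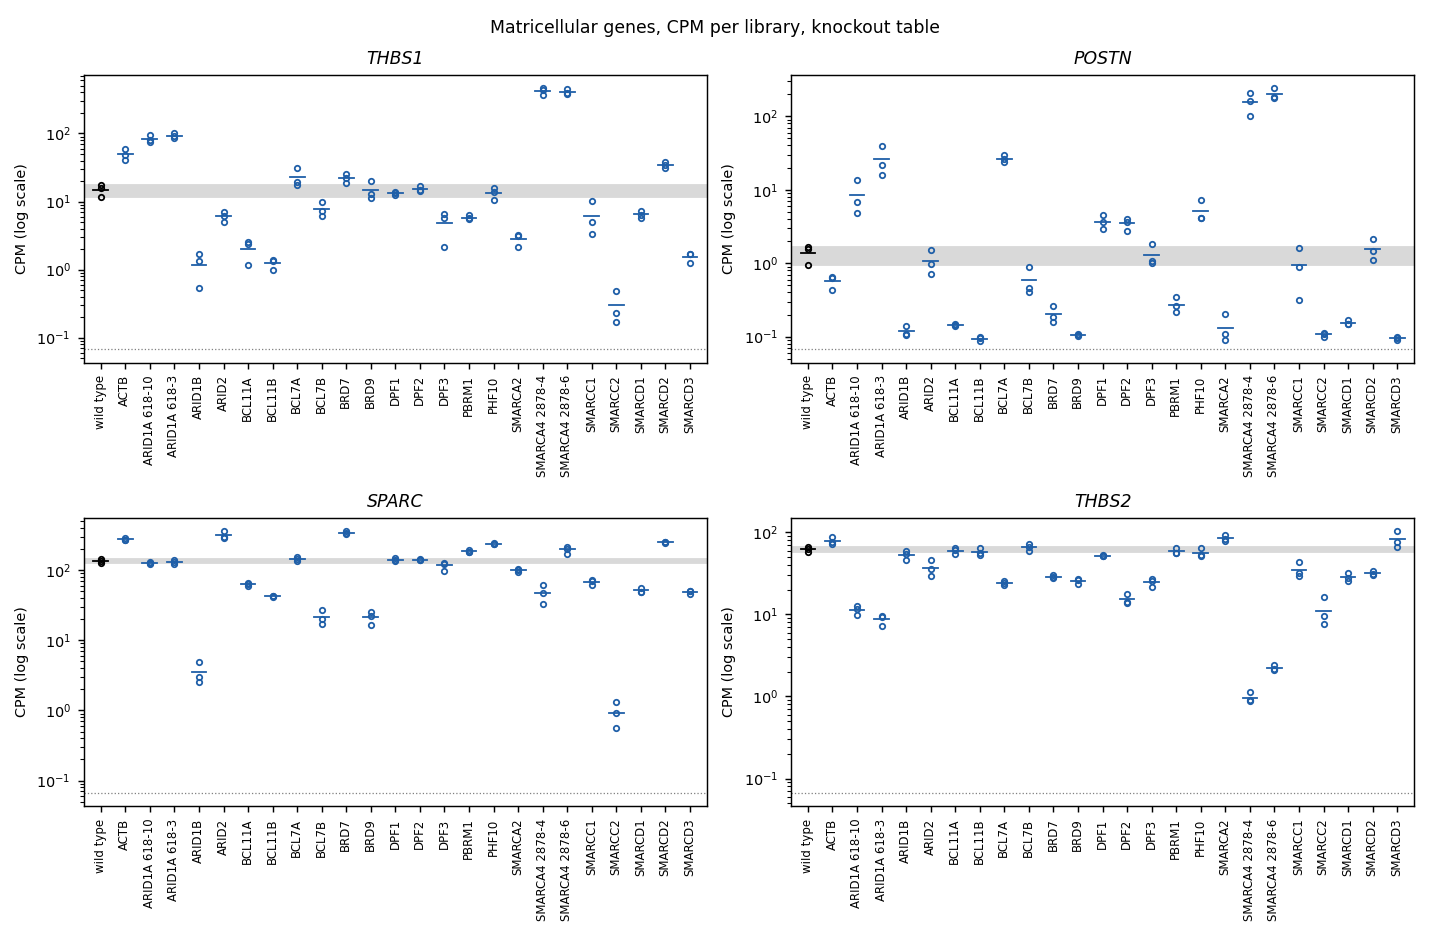
CPM of THBS1, POSTN, SPARC and THBS2 in the 75 libraries of the knockout table, on log axes. Open points are libraries, bars are group means, the grey band is the wild-type range and the dotted line is 1 count in the shallowest library. The SMARCA4 clones are highest for THBS1 and POSTN and lowest for THBS2.

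VCAN encodes versican, a large proteoglycan that binds hyaluronan. Wild type held 4.99, 2.88 and 4.52 CPM. BCL7A knockout held 35.2, 36.5 and 39.5 CPM, above the libraries of every other group. Its log2 fold change was 3.16 ± 0.273 (SE; adjusted p = 4.03e-14, edgeR). DPF1 knockout (27.7, 25.3 and 23.0 CPM; log2 fold change 2.62), DPF2 knockout (22.2, 20.6 and 28.2 CPM; 2.51) and SMARCA4 clone 2878-6 (16.9, 26.2 and 19.5 CPM; 2.35) followed and overlapped. ACTB, SMARCD3, BCL11B and SMARCD2 knockout were called higher with log2 fold changes between 1.22 and 1.75. The test against a log2 fold change of 1 (glmTreat) did not keep the calls in SMARCD3, BCL11B and SMARCD2 knockout.

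The lowest VCAN levels were found in the clones of 3 PBAF subunits. ARID2 knockout held 0.289, 0.109 and 0.141 CPM, BRD7 knockout 0.207, 0.208 and 0.140 CPM and PBRM1 knockout 0.261, 0.263 and 0.114 CPM, which is 2 to 6 counts a library. These 3 groups overlapped one another. By summed counts VCAN was 22.3-fold lower in ARID2 knockout (counting interval 12.3 to 45.3), 22.2-fold lower in BRD7 knockout (12.2 to 45.0) and 18.4-fold lower in PBRM1 knockout (10.8 to 34.1). In PHF10 knockout, the clone of the fourth of these subunits, it stood at 0.561, 0.785 and 0.393 CPM, with a log2 fold change of -2.80. VCAN was called lower in 7 clones besides those of PBAF, with log2 fold changes of -3.64 in DPF3, -3.46 in SMARCD1, -2.88 in BCL7B, -1.77 in SMARCA2, -1.64 in SMARCA4 clone 2878-4, -1.46 in ARID1A clone 618-3 and -1.32 in BRD9 knockout. Of these, glmTreat did not keep the calls in SMARCA2, SMARCA4 clone 2878-4, ARID1A clone 618-3 and BRD9 knockout.

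FN1 encodes fibronectin, the main ligand of integrin alpha-5 beta-1. It was at 16.1, 19.6 and 16.5 CPM in wild type. SMARCC1 knockout held 382, 392 and 488 CPM. The next group down was SMARCC2 knockout, at 62.8, 60.5 and 39.6 CPM, so SMARCC1 knockout stood alone. The log2 fold change in SMARCC1 knockout was 4.59 ± 0.238 (SE; adjusted p = 1.7e-23, edgeR). FN1 was called higher in 7 more clones, those of SMARCC2 (1.61), SMARCA4 2878-6 (1.60), ARID1A 618-10 (1.44), SMARCA4 2878-4 (1.36), ARID2 (1.36), BCL7A (1.15) and DPF2 (1.08). The test against a log2 fold change of 1 (glmTreat) did not call ARID1A 618-10, SMARCA4 2878-4, ARID2, BCL7A and DPF2. FN1 was called lower in none by edgeR or DESeq2, nor at an unadjusted p under 0.05, and its lowest group, BRD9 knockout, held 15.3, 13.0 and 13.9 CPM.

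Of the microfibril genes, the fibrillins had few calls in the knockout table and MFAP2 many. Between the lowest and the highest group, FBN1 differed 6.70-fold and FBN2 3.07-fold in mean CPM. FBN1, the fibrillin mutated in Marfan syndrome, was at 41.2, 35.7 and 30.5 CPM in wild type. It was called in 1 clone, BCL7B knockout, where it fell to 12.5, 10.3 and 8.55 CPM, which gives -1.78 ± 0.189 on the log2 scale (SE; adjusted p = 2.97e-11, edgeR). At an unadjusted p under 0.05 FBN1 was lower in 10 clones and higher in 2. Its highest group was BRD7 knockout, at 65.4, 79.7 and 64.9 CPM, which passed the test below the fold threshold (0.95; adjusted p = 6.5e-05). FBN2, the fibrillin made mostly during development, was at 148, 124 and 108 CPM in wild type and was called in no clone, as given above. At an adjusted p of at most 0.05 without the fold threshold it was lower in SMARCA4 clone 2878-6 (60.2, 74.1 and 62.9 CPM; -0.94) and higher in DPF2, BRD7, ACTB and SMARCA2 knockout, by 0.56 to 0.66.

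MFAP2 was near 1.59 CPM in wild type, with libraries at 1.85, 1.39 and 1.54 CPM. It reached 25.97, 34.8 and 28.3 CPM in SMARCC2 knockout, 27.2, 28.8 and 26.8 CPM in ARID2 knockout, 24.1, 29.3 and 25.3 CPM in BCL7B knockout and 26.9, 25.3 and 15.9 CPM in PBRM1 knockout. The first 3 of these groups overlapped. PBRM1 knockout had 1 lower library, yet all 12 libraries lay above every other group. The log2 fold changes were 4.19 ± 0.193, 4.13 ± 0.193, 4.04 ± 0.193 and 3.81 ± 0.192 (SE), the largest adjusted p being 1.07e-23 (edgeR). SMARCD2 knockout was intermediate, at 4.13, 6.44 and 5.43 CPM (1.74).

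In 18 clones MFAP2 was called lower, each with a group mean of at most 0.300 CPM, and in 12 of them no library had more than 3 counts. In the 17 of these clones with a library at 3 counts or fewer, the ratios of summed counts ran from 5.17-fold lower in DPF3 knockout (counting interval 3.11 to 9.08) to 25-fold lower in SMARCD3 knockout (9.47 to 93.7), apart from ARID1A clone 618-10. There all 3 libraries were at the lowest listed value, which may stand for no reads, and MFAP2 was at least 28.2-fold lower (1 subtracted from every count, against a floor of 3 counts over the group). With 1 subtracted, DPF3 knockout was 6.01-fold lower (3.47 to 11.2) and SMARCD3 knockout, with 1 count left, 97.1-fold (17.0 to 3870). DPF2 knockout, the other of the 18, had 4 to 5 counts a library (log2 fold change -2.79). PHF10 knockout was the 1 clone without a call, at 2.52, 2.35 and 2.19 CPM (0.57; adjusted p = 0.0733, edgeR). Of the 4 PBAF subunits, ARID2 and PBRM1 thus had clones with high MFAP2, while BRD7 knockout had 2 to 3 counts a library and was 11.8-fold below wild type (5.76 to 28.1), or 18.3-fold (7.58 to 57.7) with 1 subtracted from every count.

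TNC, which encodes tenascin-C, a matricellular protein of wounds and tumour stroma, was listed at 1 count in 83 of the 87 libraries and at 2 counts in the other 4. No comparison was possible at this depth.

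**Figure D4:**
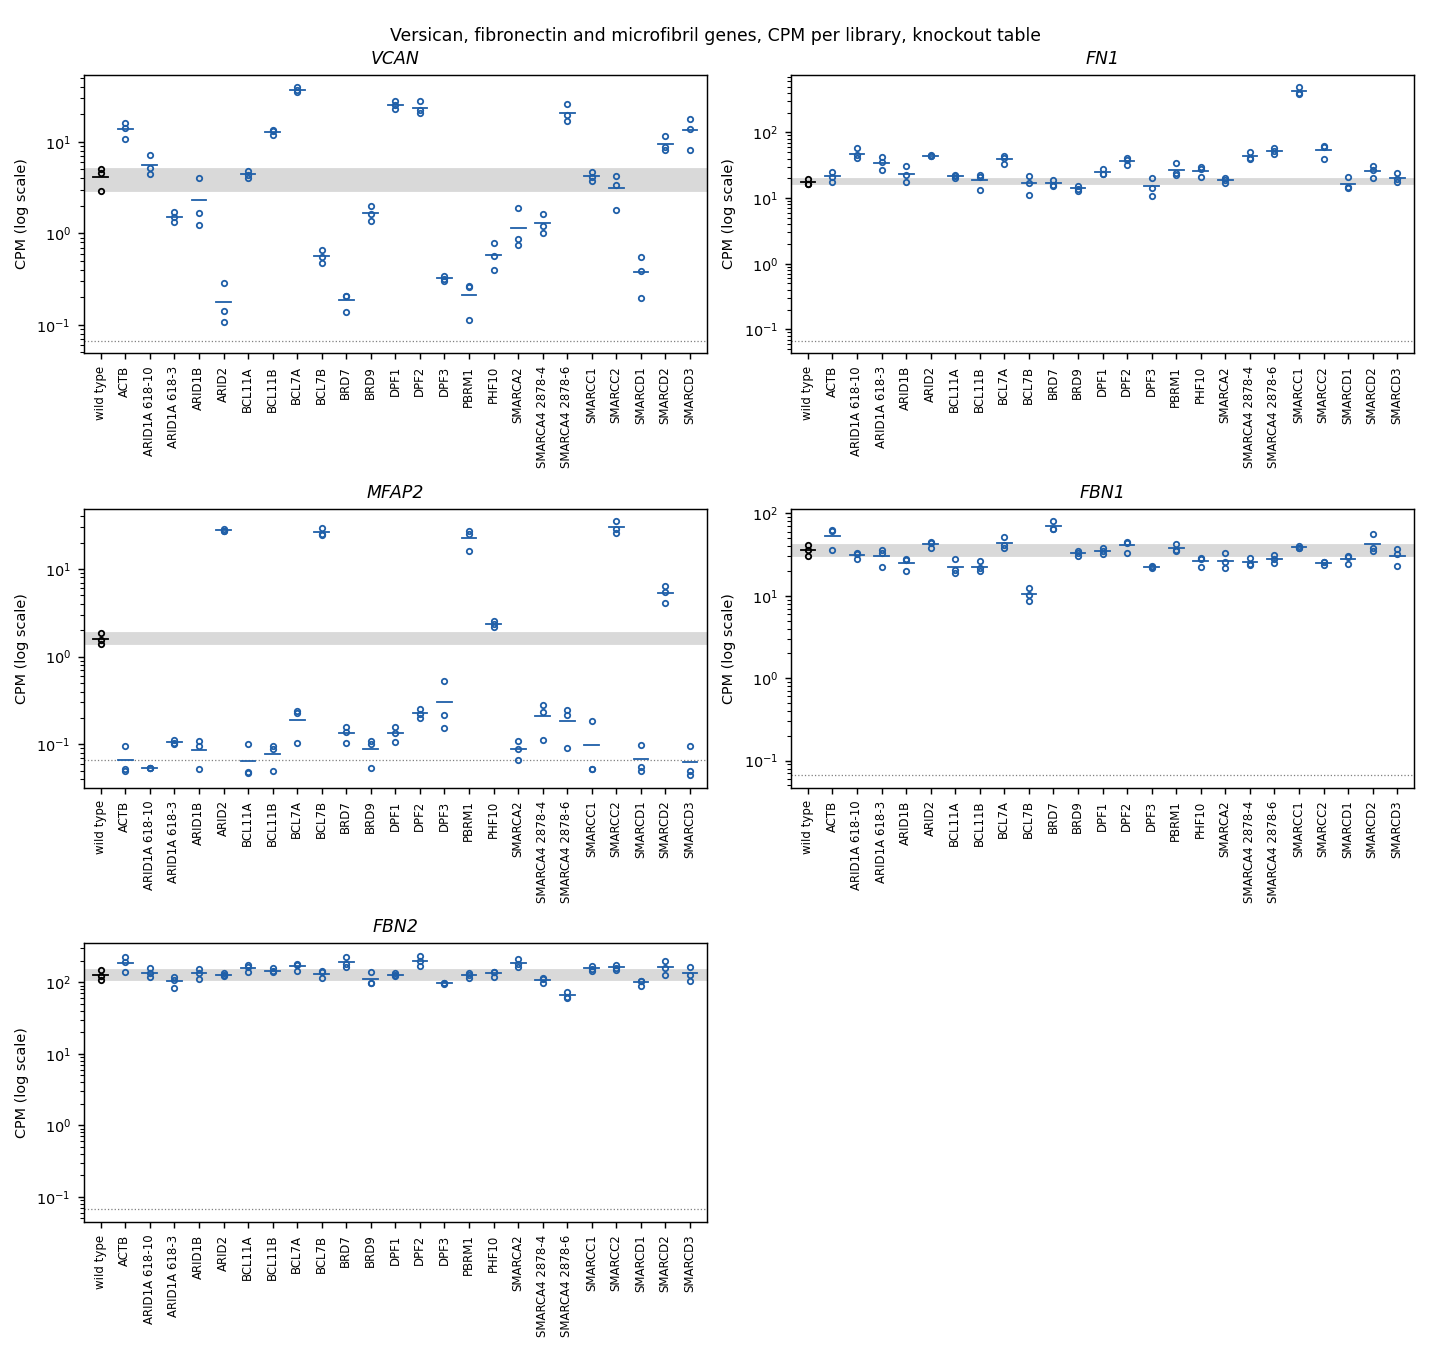
CPM of VCAN, FN1, MFAP2, FBN1 and FBN2 in the 75 libraries of the knockout table, on log axes. Open points are libraries, bars are group means, the grey band is the wild-type range and the dotted line is 1 count in the shallowest library. FBN1 and FBN2 have narrower ranges than the other 3, and MFAP2 falls into a high set of clones and a set at or near the lowest count.

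The clones of ARID1A and of SMARCA4 allow 2 clones of 1 gene to be compared directly, which the study's design offers for no other gene. Between the ARID1A clones 2 of the 9 genes were called, where 1.26% of all genes were. POSTN was lower in clone 618-10 than in 618-3 (log2 fold change -1.63 ± 0.272, SE; adjusted p = 2.66e-05), and VCAN was higher by 1.90 ± 0.305 (adjusted p = 9.62e-06, edgeR). Between the SMARCA4 clones 3 of the 9 were called, where 1.85% of all genes were. SPARC (-2.04 ± 0.145; adjusted p = 4.01e-17), THBS2 (-1.19 ± 0.281; adjusted p = 0.00424) and VCAN (-3.99 ± 0.304; adjusted p = 5.98e-16) were all lower in clone 2878-4 than in 2878-6. The POSTN difference did not hold without replicate 2 of each clone (-1.46; adjusted p = 0.0587), nor did that of THBS2 (-1.07; adjusted p = 0.211). VCAN was called in opposite directions from wild type in these 2 clones, at 1.01, 1.21 and 1.63 CPM in 2878-4. The call in 2878-4 was not kept by the test against a log2 fold change of 1 (adjusted p = 0.088, glmTreat). THBS1, POSTN, FN1 and MFAP2 were called in the same direction in both SMARCA4 clones.

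The double-loss table asked what the same genes do when SMARCA4 and ARID2 are lost together. Of 45 pairs of gene and group, 12 (26.7%) were called higher and 8 (17.8%) lower than wild type under the control knockdown, against 2.52% and 2.70% of all pairs. Wild-type levels differed between the tables, with SPARC at 17.4 CPM here and 135 CPM in the knockout table, THBS1 at 0.242 and 15.0 CPM and POSTN at 0.146 and 1.38 CPM. The tables were therefore tested apart, and this difference was not tested. SMARCC2 knockout, whose samples are numbered among the double-loss samples, held 0.931 CPM of SPARC, 0.298 CPM of THBS1 and 0.108 CPM of POSTN on average.

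In SMARCA4 knockout under the control knockdown, 4 genes were called higher and 3 lower (3.34% and 2.75% of all genes). POSTN was at 55.7 CPM in both libraries against 0.128 and 0.165 CPM in wild type, a 387-fold higher ratio of summed counts (counting interval 151 to 1420), or 773-fold (214 to 6390) with 1 subtracted from every count. THBS1 was at 39.2 and 21.0 CPM against 0.319 and 0.165 CPM, 123-fold higher (59.7 to 308). VCAN rose from 6.51 and 7.83 CPM to 39.1 and 38.4 CPM (log2 fold change 2.39 ± 0.259, SE; adjusted p = 0.000182, edgeR). FN1 rose from 18.0 and 17.2 CPM to 152 and 84.6 CPM (2.71). THBS2 was at 2.02 and 2.58 CPM against 84.9 and 31.7 CPM (-4.71; adjusted p = 0.000264). FBN2 fell from 162.5 and 159.5 CPM to 75.5 and 85.2 CPM (-1.05). MFAP2 was at 0.159 and 0.265 CPM, 4.88-fold lower (2.08 to 13.2). The calls for FN1 and MFAP2 did not hold without either wild-type library (adjusted p = 0.0529 to 0.0823), nor did that for MFAP2 without replicate 1 or 2 of the other groups (adjusted p = 0.338 and 0.0974). DESeq2 called neither FBN2 (-0.73; adjusted p = 0.137) nor MFAP2 (adjusted p = 0.0762). The log2 fold change of FBN2 was -0.96 without replicate 1 of the other groups, short of the fold threshold.

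ARID2 knockout with the control knockdown had 1 gene higher and 1 lower (0.411% and 1.16% of all genes). MFAP2 rose from 0.957 and 1.07 CPM to 7.66 and 13.3 CPM (log2 fold change 3.37 ± 0.362, SE; adjusted p = 0.000671, edgeR). VCAN was at 0.656 and 0.267 CPM, 16.0-fold lower (counting interval 8.28 to 35.6). FN1 lay above wild type in both libraries, at 47.5 and 41.3 CPM, without passing the test (1.33; adjusted p = 0.455).

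With SMARCA4 knockdown in ARID2 knockout, 2 of the 9 genes were called higher than in ARID2 knockout alone, against 2.88% of all genes called in either direction. FN1 went to 413 and 167 CPM (log2 fold change from ARID2 knockout 2.64 ± 0.562, SE; adjusted p = 0.0283) and SPARC from 8.42 and 8.45 CPM to 60.4 and 18.0 CPM (2.14 ± 0.455; adjusted p = 0.0283, edgeR). Both libraries of the double loss lay above those of ARID2 knockout for each gene. The SPARC call rested on the library at 60.4 CPM: without replicate 1 of each group other than wild type, the log2 fold change was 1.08 (adjusted p = 0.621, edgeR). THBS1 was at 2.41 and 1.59 CPM and POSTN at 0.464 and 0.586 CPM, above ARID2 knockout in both libraries but without a call (adjusted p = 0.0743 and 0.188). Against wild type under the control knockdown this double loss had 3 genes called higher and 1 lower (4.22% and 5.10% of all genes), namely FN1 (3.97), MFAP2 (4.08), THBS1 (7.86-fold by summed counts, 3.52 to 20.7) and, lower, VCAN (26.8-fold, 12.1 to 74.0). The THBS1 call did not hold without replicate 2 of wild type (adjusted p = 0.0744). With ARID2 knockdown in SMARCA4 knockout, none of the 9 genes was called by edgeR against SMARCA4 knockout alone, where 0.0205% of all genes were called. At an unadjusted p under 0.05, 1 gene (THBS1) was higher and 0 were lower, and DESeq2 called 0. POSTN was at 86.2 and 62.0 CPM and THBS1 at 75.7 and 66.9 CPM in this double loss. Against wild type under the control knockdown it had 4 genes higher and 3 lower (4.34% and 4.21% of all genes), the 7 called in SMARCA4 knockout alone. Of these, MFAP2 was not called by DESeq2 (adjusted p = 0.0538), nor by edgeR without wild-type replicate 2 (0.0659) or without replicate 1 or 2 of the other groups (0.153 and 0.189). FN1 was not called without wild-type replicate 2 (adjusted p = 0.0671, edgeR).

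The reciprocal double losses, ARID2 knockout with SMARCA4 knockdown and SMARCA4 knockout with ARID2 knockdown, differed in 6 of the 9 genes, with 3 higher in the former and 3 lower, against 1.41% and 2.54% of all genes. THBS2 (log2 fold change 3.90), FBN2 (1.51) and MFAP2 (86.5-fold by summed counts, 39.4 to 237) were higher in ARID2 knockout with SMARCA4 knockdown. THBS1 (-5.18) and POSTN (-7.13) were lower there, and VCAN stood at 0.278 and 0.251 CPM against 30.1 and 38.3 CPM (127-fold lower, 58.2 to 347). In wild type with both knockdowns no gene was called by edgeR, against 0.295% and 0.267% of all genes. At an unadjusted p under 0.05, 1 gene was higher and 3 were lower, and DESeq2 called 1 higher. FN1, at 142 and 38.1 CPM, had the widest difference (2.34; adjusted p = 0.0921).

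**Figure D5:**
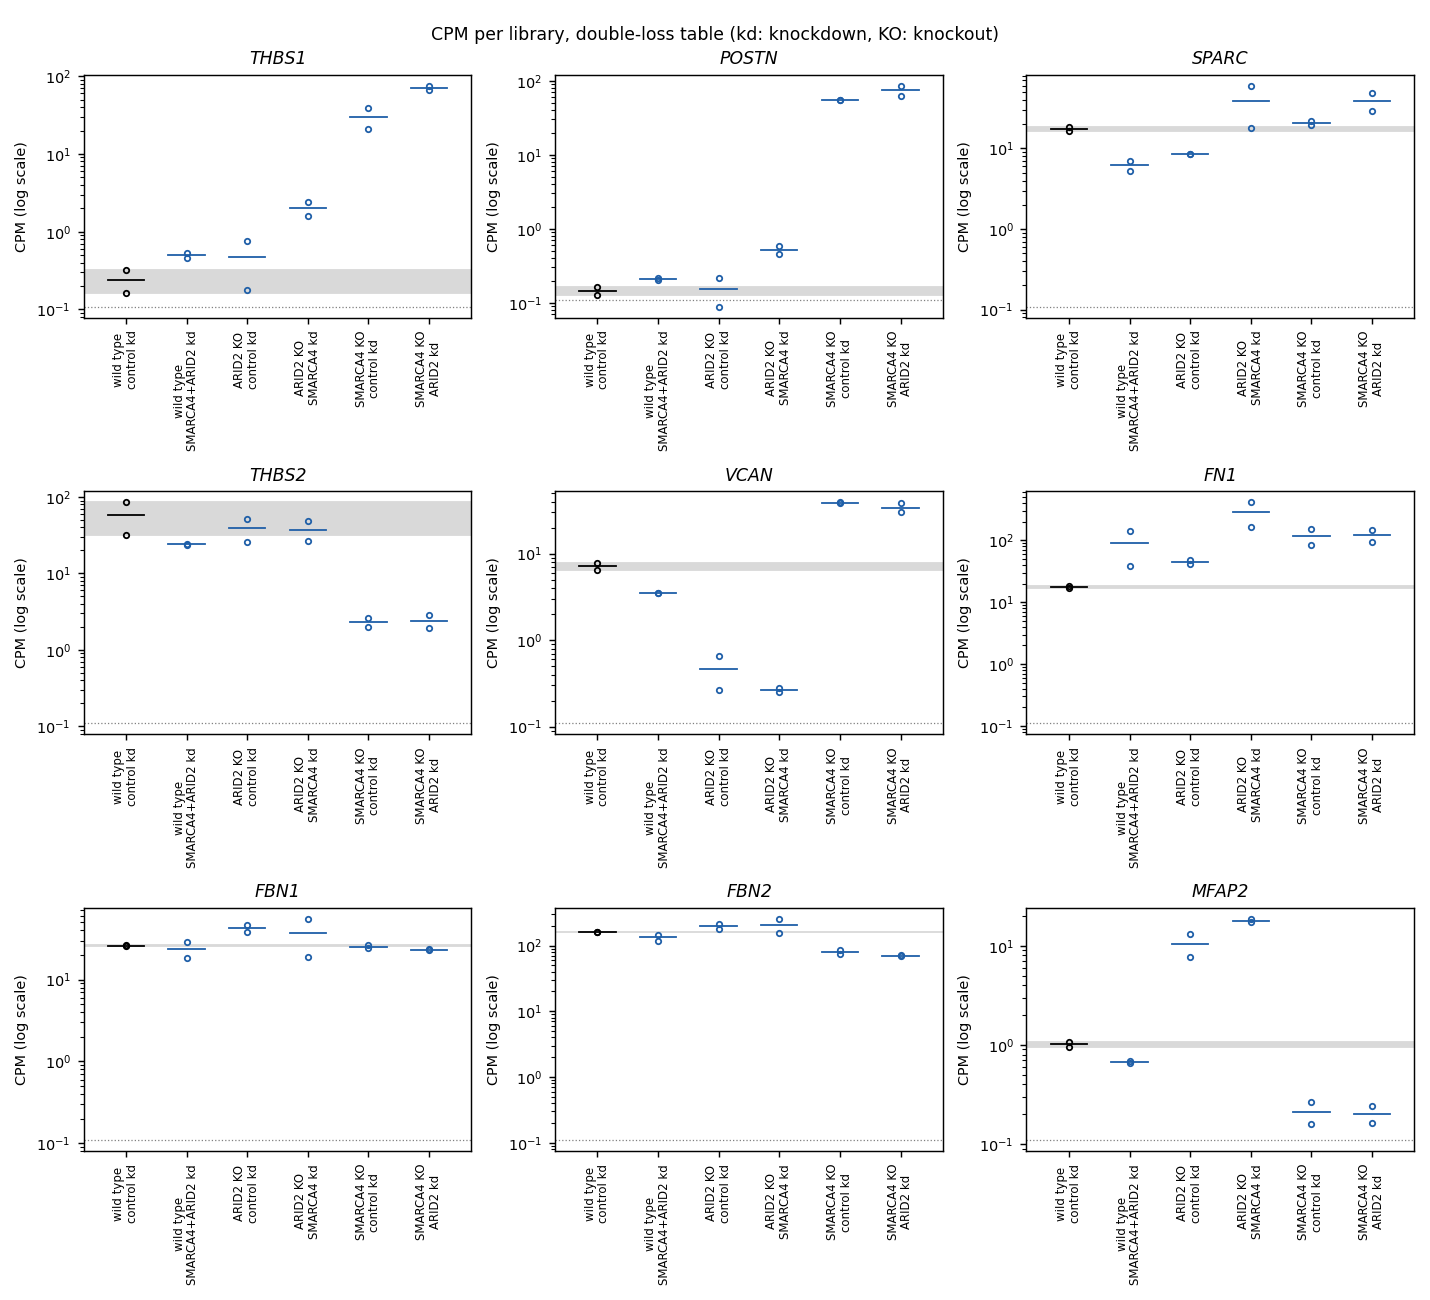
CPM of the 9 tested genes in the 12 libraries of the double-loss table, on log axes. Open points are libraries, bars are group means, the grey band is the range of wild type under the control knockdown and the dotted line is 1 count in the shallowest library. THBS1, POSTN and VCAN are high in both SMARCA4 knockout groups, and MFAP2 is high in both ARID2 knockout groups.

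Set side by side with the knockout table, VCAN and MFAP2 in ARID2 knockout were called in the same direction in both tables, as were THBS1, POSTN, THBS2, FN1 and MFAP2 in SMARCA4 knockout beside either clone. SPARC was higher in ARID2 knockout in the first table (1.24) and lower in both libraries of the second (-1.04; adjusted p = 0.478, edgeR). VCAN in SMARCA4 knockout of the second table (2.39) was close to clone 2878-6 (2.35) and opposite to clone 2878-4 (-1.64). The labels of the second table do not name the clone used.

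Over the 25 group means of log2(CPM + 1), with wild type among the points, THBS1 and POSTN were the pair most alike, at r = 0.837 (Spearman's rho 0.78), and r was 0.67 without the 2 groups farthest from the median, so part of the likeness rests on those groups. THBS2 and POSTN ran opposite, at r = -0.801 (rho -0.535; -0.509 without the 2 groups), as did THBS1 and THBS2 at r = -0.692 (rho -0.486; -0.37). SPARC and FBN1 had r = 0.546 and rho 0.709. Without the 2 groups farthest from the median their r was 0.678, about that of THBS1 and POSTN, which were thus the most alike only with all groups. VCAN, FN1 and MFAP2 had no Pearson r above 0.314, or below -0.372, with any other of the 9 genes, but the rho of FN1 was 0.495 with POSTN and -0.485 with THBS2. These coefficients describe 25 groups, some of them as alike as 2 clones of 1 gene, that share the same wild type. They include SMARCC2 knockout, whose samples are numbered apart from those of the other groups.

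Other genes with the most similar pattern over the same 25 groups were NEBL (r = 0.93), BMPR1A (0.923) and STYX (0.923) for THBS1, NR6A1 (0.939), NDUFC2 (0.925) and FAM69A (0.925) for POSTN, and PRPF38A (0.873), SLMO2 (0.866) and ITM2A (0.859) for THBS2. SPARC was nearest to SEPT7 (0.899), SDC2 (0.829) and PPIL4 (0.825), and FN1 to MFGE8 (0.926), SIX3 (0.86) and TPGS2 (0.799). MFGE8, SIX3 and TPGS2 were, like FN1, highest in SMARCC1 knockout. ITM2A ranged from 1.64 to 810 CPM and NEBL from 1.27 to 104 CPM over the groups, while SEPT7 moved between 264 and 341 CPM, so likeness did not require a like range. The nearest genes of VCAN (TEAD2, DKK3 and MMP2) reached r = 0.698. Those of FBN1 (FAM118A, ANKRD11 and ZDHHC7) reached 0.772, those of FBN2 (CDKN1A, DIP2C and ZMAT3) 0.716 and those of MFAP2 (GABRA5, ARMC7 and NDUFS6) 0.744. Spearman's rho of all these nearest genes ran from 0.331 (NDUFS6 with MFAP2) to 0.895 (NDUFC2 with POSTN). It was 0.533 for TPGS2 with FN1 and 0.565 for ITM2A with THBS2.

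Genes that work with these proteins were followed through 5 lists, which were also chosen with earlier results of these data known. Of 22 other elastic fibre genes 20 were tested, and 27 (5.62%) of 480 pairs of gene and clone were called higher and 25 (5.21%) lower, beside the 2.46% and 2.24% of all pairs. EFEMP1, a fibulin, was lower in 14 clones and higher in 1, and LTBP1, which tethers latent TGF-beta to fibrillin, was higher in 6, reaching a log2 fold change of 4.20 in BCL7B knockout, the clone in which FBN1 fell. Of 21 other matricellular genes 13 were tested, with 36 (11.5%) of 312 pairs higher and 27 (8.65%) lower. NOV, a CCN family member, was lower in 11 clones and higher in 3, and SPARCL1, the nearest relative of SPARC, was higher in 7 and lower in 4. Among the hyaluronan-binding proteoglycans, link proteins and hyaluronan synthases, relatives and partners of VCAN, 5 of 10 were tested, with 16 (13.3%) of 120 pairs higher and 12 (10.0%) lower. HAPLN4, a link protein, was lower in 12 clones and higher in 3, and BCAN, the brain relative of versican, was higher in 11.

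Of 17 receptors for these proteins 14 were tested, and 10 (2.98%) of 336 pairs were higher and 22 (6.55%) lower. CD44 was called lower in 14 clones and higher in 2, with log2 fold changes from -4.32 in PBRM1 knockout to 2.62 in BCL7B knockout, and the integrin subunit ITGB8 was higher in 6, up to 2.66 in ACTB knockout. Of 16 enzymes that cleave or modify these proteins 15 were tested, with 21 (5.83%) of 360 pairs higher and 21 lower. ADAMTS5, an aggrecan- and versican-cleaving protease, was lower in 12 clones and higher in 1. ADAMTS9, a related protease, was higher in 11 and lower in 2. EFEMP1, NOV and ADAMTS5 were scarce in wild type, at 0.397, 0.959 and 0.374 CPM. Their lowest group means, 0.0482, 0.0497 and 0.0497 CPM, lay below 1 count in the shallowest knockout library (0.067 CPM). Depth thus limits how far their falls can be read. In the double-loss table the other matricellular genes had 11 (24.4%) of 45 pairs higher and 1 (2.22%) lower. The receptors had 2 (3.08%) of 65 higher and 8 (12.3%) lower. The other elastic fibre genes had 3 (3.75%) of 80 higher and 2 (2.50%) lower. For the relatives and partners of VCAN, 3 (12.0%) of 25 were higher and 2 (8.00%) lower. For the enzymes, 7 (10.8%) of 65 were higher and 1 (1.54%) lower. Over all pairs of gene and group among double-loss libraries, 2.52% were higher and 2.70% lower.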

How the data were processed

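RNA of HAP1 cells was sequenced as stranded poly-A libraries with single 50-base reads, per the labels' protocols. Trimmomatic, Bowtie, Picard and DESeq2 and the builds GRCh37 and hg19 are named per the submitters' processing notes. For these tools no version is stated, and how reads were counted, and on which gene models, is not given in the sources used here. The authors deposited estimated counts per gene (expected counts, already whole numbers, with a lowest value of 1) in 2 tables, and quantile-normalized log2 TPM, which the authors also deposited and which was used for levels between genes. Of the columns, 8 matched no labelled sample and were not used. The log2 TPM table has 71 matched columns, none of SMARCC2 knockout.

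The counts were tested with edgeR 4.0.16 in R 4.3.3 (filterByExpr, TMM, robust quasi-likelihood F-test, with groups as terms and every library of the table in the fit), with 16159 genes tested among knockouts and 14601 among double losses. Adjusted p-values are Benjamini-Hochberg over all of these genes in each comparison, and a call needed an adjusted p of at most 0.05 and a log2 fold change of at least 1 in size. Standard errors are the fold change over the square root of F. Where a library of either group had at most 3 counts, the ratio of summed counts with its 95% Clopper-Pearson interval is given in place of the fitted fold change; such intervals cover counting error only and do not allow for the lowest value of 1. CPM are counts over library totals. Chi-square comparisons of counts found no 2 libraries of a group that agreed within sampling noise. The script was tested on simulated data. Alternatives were DESeq2 1.42.0, limma 3.58.1 on the log2 TPM, other size factors, filters, call rules and fits, and leaving out libraries.

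All 10 genes are named. For each list of other genes the 2 called in most clones are named (ties by the larger log2 fold change), and for each gene the 3 tested genes of most similar group means, if at 5 CPM or more in some group. The genes and lists were chosen with earlier results of these data known. A planned comparison of the proteins was not run.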

Additional observations from a re-analysis of the deposited data

Results flagged for a closer look

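Between 2 clones of 1 gene, 5 differences were called by edgeR's direct test. POSTN was lower (log2 fold change -1.63; adjusted p = 2.66e-05) and VCAN higher (1.90; adjusted p = 9.62e-06) in ARID1A clone 618-10 than in clone 618-3. SPARC (-2.04; adjusted p = 4.01e-17), THBS2 (-1.19; adjusted p = 0.00424) and VCAN (-3.99; adjusted p = 5.98e-16) were lower in SMARCA4 clone 2878-4 than in clone 2878-6. The POSTN and THBS2 differences did not hold without replicate 2 of each clone (adjusted p = 0.0587 and 0.211, edgeR). Testing against a log2 fold change of 1 (glmTreat) kept neither difference between the ARID1A clones (adjusted p = 0.435 for POSTN and 0.087 for VCAN). It did not keep that of THBS2 either.

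Knockouts of 1 gene lay on opposite sides of wild type in the 2 count tables in 3 cases, with every library of each group on its side of the wild type of its table. SPARC in ARID2 knockout had a log2 fold change of 1.24 in the knockout table, whereas it was -1.04 among the double-loss libraries (adjusted p = 0.478, edgeR, not called). SPARC in SMARCA4 knockout had -1.48 in clone 2878-4 and 0.20 in the double-loss table (adjusted p = 0.871, not called). VCAN in SMARCA4 knockout had -1.64 in clone 2878-4 and 2.39 in the double-loss table, both called. These differences between tables were not tested, and table and clone cannot be told apart.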

How the results depend on the processing

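None of the 144 called fold changes changed sign under the alternatives run, and neither the size factors of DESeq2 in edgeR nor 1 subtracted from every count (added after seeing the data) lost a call. Called pairs in the knockout table numbered 38 higher and 73 lower, and 37 and 73 with DESeq2's Wald test. Limma on log2 TPM, which has no columns of SMARCC2 knockout, gave 36 and 69, the same as edgeR without that clone, and kept all 110 calls it could compare. Testing against a log2 fold change of 1 (glmTreat) kept 98 of the 144 calls and lost 46. It left 23 pairs higher in the knockout table, 4 lower in the double-loss table, 0 between the ARID1A clones (2 by edgeR's F-test and 2 by DESeq2) and 0 for a knockdown inside a knockout (2 by edgeR's F-test and 3 by DESeq2). DESeq2's Wald test called 5 pairs lower in the double-loss table in place of 8. Leaving out replicates gave 37 to 39 pairs higher and 72 to 77 lower in the knockout table, 9 to 16 higher and 5 to 7 lower in the double-loss table, 1 to 2 genes between the ARID1A clones, 2 to 3 between the SMARCA4 clones, 1 to 2 for a knockdown inside a knockout and 6 to 7 between the reciprocal double losses. In the double-loss table such a fit leaves 1 library in a group, which is assumed to vary like the others. The causes of these shifts were not tested.

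The replicate block gave 38 higher and 73 lower, 13 higher and 10 lower in the double-loss table, and 2, 3, 3 and 6 genes in the other comparisons, and it lost none of the 144 calls. Libraries with the same number were not treated as pairs: every correlation of their deviations was over 0.1 in 5 of 24 knockout comparisons, and in 6 of 7 of the double-loss table, where there are 2 pairs each.

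Depth limits POSTN, MFAP2, VCAN and THBS1 in the clones at 3 counts or fewer, where levels below about 0.067 CPM (1 count in the shallowest knockout library) cannot be read, and it limits TNC throughout.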
